A study of Mus musculus with 6 samples.

Results

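The 10 glutathione S-transferase genes Gsta2, Gsta4, Gstm1, Gstm2, Gstm5, Gstp1, Gstt1, Gstt2, Gstk1 and Mgst1 were followed in mouse kidneys with and without an induced deletion of Pkd1, the gene for polycystin-1, whose mutations are the commonest cause of autosomal dominant polycystic kidney disease. The genes were taken from a list of symbols, and all 10 were found among the 56923 gene identifiers of the count tables and among the 18273 genes that passed the filter on low counts. RNA sequencing had been run on poly-A RNA of whole kidneys from male mice, 3 Pkd1 KO and 3 control kidneys. Pkd1 KO mice were Pkd1flox/flox.Pax8rtTA.Tet-O-Cre, in which doxycycline switches on Cre in cells that express Pax8, mainly the epithelium of the tubules, and control mice were Pkd1flox/flox.Tet-O-Cre without the Pax8rtTA activator. Both groups therefore carried the floxed alleles and the Cre transgene, both were given doxycycline (2 mg/ml, in water with 5% sucrose) between postnatal days 28 and 42, and kidneys were taken at 10 weeks. Cells in which Pax8 is silent keep Pkd1 in both groups. The question put to the genes is which of their transcripts differ between kidneys with the induced deletion and control kidneys.

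Glutathione transferases join the thiol of glutathione to reactive electrophiles such as drug metabolites, epoxides and the aldehydes of oxidized lipids, and several also reduce lipid hydroperoxides. The soluble enzymes fall into classes named alpha, mu, pi, theta, zeta and omega, a kappa enzyme sits in mitochondria and peroxisomes, and unrelated microsomal enzymes are embedded in membranes. In the kidney they are best known from the proximal tubule, where shed alpha class protein is used as a sign of tubule damage. Conjugates leave the cell through export pumps and are trimmed to mercapturates by enzymes of the brush border. The transcription factor NRF2, held in check by KEAP1, is a known inducer of many of these genes through antioxidant response elements.

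The Pkd1 KO libraries held 51966474 to 62983791 gene counts and the control libraries 45020173 to 55548316. Pkd1 itself had 8.77, 8.998 and 10.001 CPM (counts scaled to a common library size by TMM, the trimmed mean of M values) in Pkd1 KO libraries, against 29.99, 46.4 and 23.5 CPM in control libraries, a log2 fold change of −1.85 ± 0.24 (SE; edgeR quasi-likelihood test, adjusted p = 0.00235). With offsets for transcript length and base composition, described below, it was −0.53 ± 0.13 (adjusted p = 0.0112; 0.0551 with lengths of principal transcripts), and the labels do not state which exons are floxed. In the names of the deposited data, all 3 Pkd1 KO libraries carried 1 code and all 3 control libraries another. The code was read as a sequencing project, which the labels do not state. Effects of what the code marks and of genotype cannot be told apart here. The first principal component (70.4% of the variance of log2 CPM) placed Pkd1 KO libraries at 52.4 to 66.4, control 1 and control 2 at −58.1 and −92.6, and control 3 at −24.2, nearest to the Pkd1 KO libraries.

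Of the 10 transferases, 5 rose in Pkd1 KO kidneys (Gstm5, Gstt1, Gstt2, Gstk1 and Mgst1), 2 fell (Gsta2 and Gstm1) and 3 did not pass the test (Gsta4, Gstm2 and Gstp1), where edgeR's quasi-likelihood test had to give an adjusted p under 0.05 over all tested genes. The background was high, with 46.9% of all tested genes called, 22.7% higher and 24.2% lower. DESeq2 called the same number of members, 5 higher and 2 lower, beside 50.1% of all genes, 23.6% higher and 26.5% lower. The same 5 and 2 members had group ranges that did not overlap, beside 61.2% of all tested genes, 31.2% with Pkd1 KO above and 30.0% with Pkd1 KO below. The members' median log2 fold change was 0.43, against 0.03 over all tested genes. On the log2 scale both decreases, −1.39 for Gsta2 and −1.20 for Gstm1, were larger than any increase, which ran from 0.46 for Gstk1 to 0.65 for Gstt2. In mean CPM, Gsta2 was down by 61.7% and Gstm1 by 56.5%, and Gstk1 was up by 37.2% and Gstt2 by 57.2%. For each of the 7 called members, control 3 was the control library closest to the Pkd1 KO mean. In a whole-kidney sample, fewer cells of a type and less RNA per cell cannot be told apart.

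**Figure D1:**
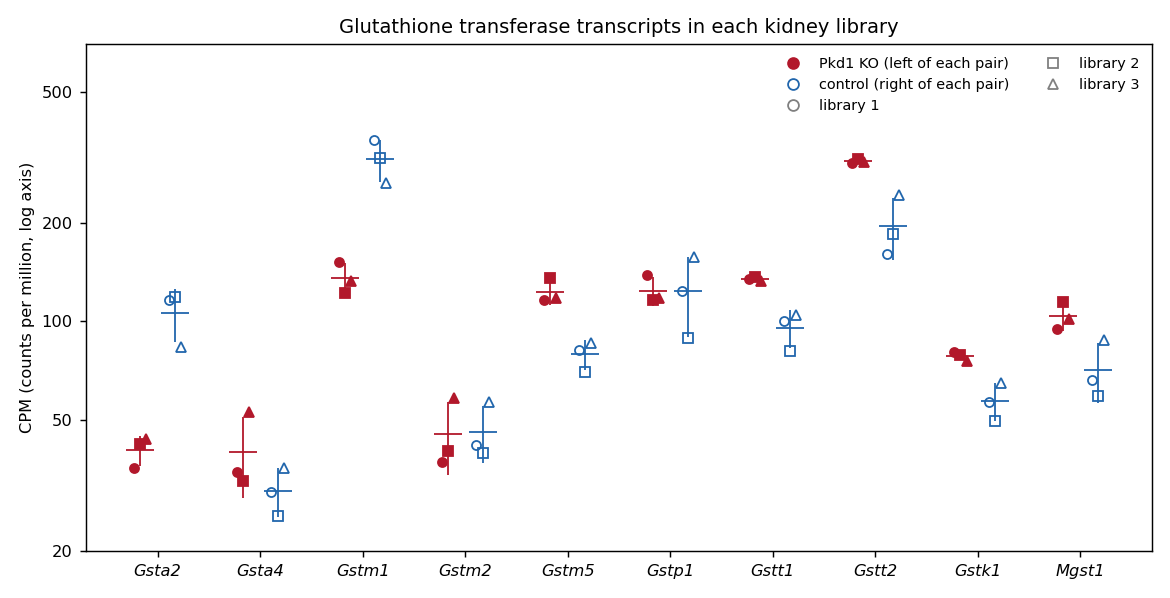
CPM of each transferase (log axis) in the 3 Pkd1 KO libraries (filled, left) and the 3 control libraries (open, right); the marker shape gives the library number, horizontal lines are means and vertical lines ± SD. Gsta2 and Gstm1 of Pkd1 KO libraries lie below every control, Gstm5, Gstt1, Gstt2, Gstk1 and Mgst1 lie above every control, and Gsta4, Gstm2 and Gstp1 overlap.

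The start regions of both members that fell, and of the members that rose with an antioxidant response element in the window, are printed. They were picked by call and by match, so they cannot show whether such elements go with increases. Gstt1 and Gstk1 also rose, had no such element in their windows and are not printed. RefSeq windows of 250 bases before to 50 bases after a transcription start (build GRCm38.p6) were at hand for 8 of the 10 members, all but Gsta4 and Gstt2, and gave 10 windows since Gstm1 and Mgst1 have an additional start. Each was searched on both strands for the antioxidant response element core TGACNNNGC and for the AP-1 site TGANTCA. Capitals mark a match.
Gsta2 (chr9:78347096-78347395, minus strand): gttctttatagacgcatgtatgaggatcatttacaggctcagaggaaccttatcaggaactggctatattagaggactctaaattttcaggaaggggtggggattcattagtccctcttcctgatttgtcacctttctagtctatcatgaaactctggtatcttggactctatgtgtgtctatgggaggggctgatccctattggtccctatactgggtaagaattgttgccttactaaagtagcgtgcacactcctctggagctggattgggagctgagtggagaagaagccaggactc
Gstm1 (chr3:108017769-108018068, minus strand): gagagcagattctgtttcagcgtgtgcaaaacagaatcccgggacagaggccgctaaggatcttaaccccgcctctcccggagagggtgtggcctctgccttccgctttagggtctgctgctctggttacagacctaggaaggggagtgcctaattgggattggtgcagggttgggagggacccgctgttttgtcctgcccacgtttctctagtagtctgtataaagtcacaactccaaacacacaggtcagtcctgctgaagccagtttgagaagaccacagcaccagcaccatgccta
Gstm5 (chr3:107895604-107895903, plus strand): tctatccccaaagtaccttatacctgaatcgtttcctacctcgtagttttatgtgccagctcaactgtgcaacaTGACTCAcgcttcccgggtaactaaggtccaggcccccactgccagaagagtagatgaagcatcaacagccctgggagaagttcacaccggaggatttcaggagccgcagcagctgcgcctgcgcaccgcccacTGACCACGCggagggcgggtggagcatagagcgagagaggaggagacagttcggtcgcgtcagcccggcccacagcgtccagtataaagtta
Mgst1 (chr6:138140277-138140576, plus strand): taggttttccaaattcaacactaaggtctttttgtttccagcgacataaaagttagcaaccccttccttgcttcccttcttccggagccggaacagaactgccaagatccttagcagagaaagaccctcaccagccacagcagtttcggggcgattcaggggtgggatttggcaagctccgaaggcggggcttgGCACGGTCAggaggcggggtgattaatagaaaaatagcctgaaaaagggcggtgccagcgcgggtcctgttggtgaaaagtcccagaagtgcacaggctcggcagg

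Gstm5 held an element core whose first base lay 42 bases before the start and an AP-1 match 176 bases before it, Mgst1 held an element core on the opposite strand 56 bases before the start, and Gstp1 held an AP-1 match 74 bases before it. The windows of Gsta2, Gstm1 (both starts), Gstm2, Gstt1 and Gstk1 and the other start of Mgst1 held neither set of letters. Over all 32851 windows of the table, 12.4% held the element core and 7.81% the AP-1 letters. Of the 37 windows of the members and their relatives, 10.8% held the element core and 10.8% the AP-1 letters. A match is a run of letters and not a bound site, and elements outside a window were not searched.

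Gsta2 (ENSMUSG00000057933, chromosome 9), an alpha class enzyme that conjugates electrophiles and reduces organic hydroperoxides, had 35.8, 42.3 and 43.7 CPM in Pkd1 KO libraries, against 116, 119 and 83.7 CPM in control libraries. Every Pkd1 KO library lay below the lowest control, which was control 3. The means were 40.6 ± 4.21 CPM in Pkd1 KO and 106 ± 19.5 CPM in control kidneys (SD, n = 3 each), which put the log2 fold change at −1.39 ± 0.17 (SE; edgeR, adjusted p = 0.00235). It stayed between −1.58 and −1.31, with adjusted p of at most 0.022, when any 1 library was left out. Gsta4 (ENSMUSG00000032348, chromosome 9), the alpha class enzyme specialised for hydroxyalkenals from oxidized lipids, had 34.9, 32.6 and 53.0 CPM in Pkd1 KO libraries, against 30.3, 25.5 and 35.8 CPM in control libraries. The groups overlapped, and Pkd1 KO 3 alone lay above all controls. The log2 fold change was 0.40 ± 0.21 (SE; edgeR, adjusted p = 0.157).

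Gstm1 (ENSMUSG00000058135, chromosome 3), the most abundant member per length in control kidneys and a broad mu class conjugating enzyme, had 151, 122 and 133 CPM in Pkd1 KO libraries, against 357, 314 and 264 CPM in control libraries. The groups were far apart, and control 3 was again the lowest control. Means of 136 ± 14.7 CPM in Pkd1 KO and 312 ± 46.2 CPM in control kidneys (SD, n = 3 each) gave a log2 fold change of −1.20 ± 0.16 (SE; edgeR, adjusted p = 0.0024), and the call held without any 1 library. Gstm2 (ENSMUSG00000040562, chromosome 3), a close mu class relative, had 37.3, 40.3 and 58.4 CPM in Pkd1 KO libraries, against 42.2, 39.7 and 56.7 CPM in control libraries. In both groups library 3 was the highest, and the ranges covered each other, with a log2 fold change of −0.02 ± 0.21 (SE; edgeR, adjusted p = 0.932). Gstm5 (ENSMUSG00000004032, chromosome 3), a more distant mu class enzyme, had 116, 136 and 118 CPM in Pkd1 KO libraries, against 82.1, 70.2 and 85.8 CPM in control libraries. All Pkd1 KO libraries lay above all controls, at a log2 fold change of 0.63 ± 0.14 (SE; edgeR, adjusted p = 0.00774). The call held without any 1 library, at adjusted p of at most 0.0474, but ended with the offsets for length and base composition described below (0.03, adjusted p = 0.869).

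Gstp1 (ENSMUSG00000060803, chromosome 19), the pi class enzyme, also known to bind stress kinases, had 138, 116 and 118 CPM in Pkd1 KO libraries, against 124, 89.1 and 157 CPM in control libraries. The Pkd1 KO libraries all lay inside the range of the controls, and the log2 fold change was 0.01 ± 0.21 (SE; edgeR, adjusted p = 0.973).

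Both theta class genes among the 10 members rose, although the call of Gstt1 ended with the offsets described below (0.24, edgeR, adjusted p = 0.13). Gstt1 (ENSMUSG00000001663, chromosome 10), which acts on small halogenated compounds, had 135, 137 and 133 CPM in Pkd1 KO libraries, against 100.6, 81.4 and 105 CPM in control libraries. All Pkd1 KO libraries lay above all controls. Its log2 fold change was 0.49 ± 0.14 (SE; edgeR, adjusted p = 0.0206). Gstt2 (ENSMUSG00000033318, chromosome 10), a theta class enzyme active on sulfate esters and lipid peroxides, had 305, 312 and 307 CPM in Pkd1 KO libraries, against 160.4, 184 and 242 CPM in control libraries. The Pkd1 KO libraries were tightly grouped above controls that spread widely, at a log2 fold change of 0.65 ± 0.17 (SE; edgeR, adjusted p = 0.015). Leaving out control 1, Pkd1 KO 2 or Pkd1 KO 3 ended the call of Gstt2 (adjusted p 0.0745, 0.06 and 0.0507), and leaving out control 1 or any Pkd1 KO library ended that of Gstt1 (0.0620 to 0.0806).

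Gstk1 (ENSMUSG00000029864, chromosome 6), the kappa enzyme of mitochondria and peroxisomes, had 80.7, 79.2 and 75.9 CPM in Pkd1 KO libraries, against 56.9, 49.9 and 65.1 CPM in control libraries. The groups did not overlap, at a log2 fold change of 0.46 ± 0.14 (SE; edgeR, adjusted p = 0.0265). Mgst1 (ENSMUSG00000008540, chromosome 6), a membrane enzyme of the endoplasmic reticulum and outer mitochondrial membrane with peroxidase activity, had 94.8, 115 and 102 CPM in Pkd1 KO libraries, against 66.4, 59.4 and 87.7 CPM in control libraries. Control 3, the highest control, lay just below the lowest Pkd1 KO library, and the log2 fold change was 0.54 ± 0.17 (SE; edgeR, adjusted p = 0.0298). Neither call held without control 1 or without any Pkd1 KO library, with adjusted p of 0.0776 to 0.098 for Gstk1 and 0.0588 to 0.124 for Mgst1.

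Fold changes of all genes followed transcript length and base composition. With genes split into 8 bins by exon length, the median log2 fold change decreased from bin to bin, with 0.65 in the shortest and −0.51 in the longest. By GC content it was 0.56 in the lowest of 8 bins and −0.60 in the highest. The members are short, with 1177 (Gsta2) to 2013 (Mgst1) exonic bases apart from Gstt2 at 4156. A second fit gave each gene and library an offset, a loess surface (span 0.3) of log2 CPM against GC content and exon length. There Gsta2 stood at −2.17 ± 0.22 (SE; edgeR, adjusted p = 0.00107) and Gstm1 at −1.58 ± 0.18 (adjusted p = 0.00138), both further below 0 than without offsets. Of the 5 increases only that of Gstt2 passed (0.70 ± 0.16, SE; edgeR, adjusted p = 0.0109), beside 15.0% of all genes called higher and 19.5% lower in this fit. Gstm5 stood at 0.03 ± 0.12 (SE; edgeR, adjusted p = 0.869) and Gstt1 at 0.24 ± 0.12 (adjusted p = 0.13). The directions of Gstk1 (−0.08), Mgst1 (−0.11), Gsta4 (−0.24) and Gstp1 (−0.17) turned below 0 without passing the test, and Gstm2 stood at −0.44 ± 0.17 (adjusted p = 0.0656). The members' median became −0.14, against −0.05 over all genes. Within these offsets the call of Gstt2 ended without control 1 (adjusted p = 0.0599) or Pkd1 KO 2 (0.0537), and Gstm2 passed without Pkd1 KO 3 (−0.63, adjusted p = 0.0237).

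The union of all annotated exons can exceed the length of the main transcript, which for Gstt2 is 2254 bases, since other transcripts keep introns. With offsets from the length and GC content of the principal transcript, an alternative chosen after seeing the data, Gstt2 stayed higher (0.50 ± 0.14, SE; edgeR, adjusted p = 0.0254) and Gsta2 (−2.25) and Gstm1 (−1.55) stayed lower. Gstm2 (−0.57 ± 0.16, adjusted p = 0.0235) and Gstp1 (−0.46 ± 0.13, adjusted p = 0.025) were then called lower as well, giving 1 member higher and 4 lower, where 33.6% of all genes were called in edgeR's test, 14.3% higher and 19.3% lower. Offsets also remove any true change shared by short or by GC-poor genes, so the part of length and base composition in the 4 increases that ended was not tested.

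**Figure D2:**
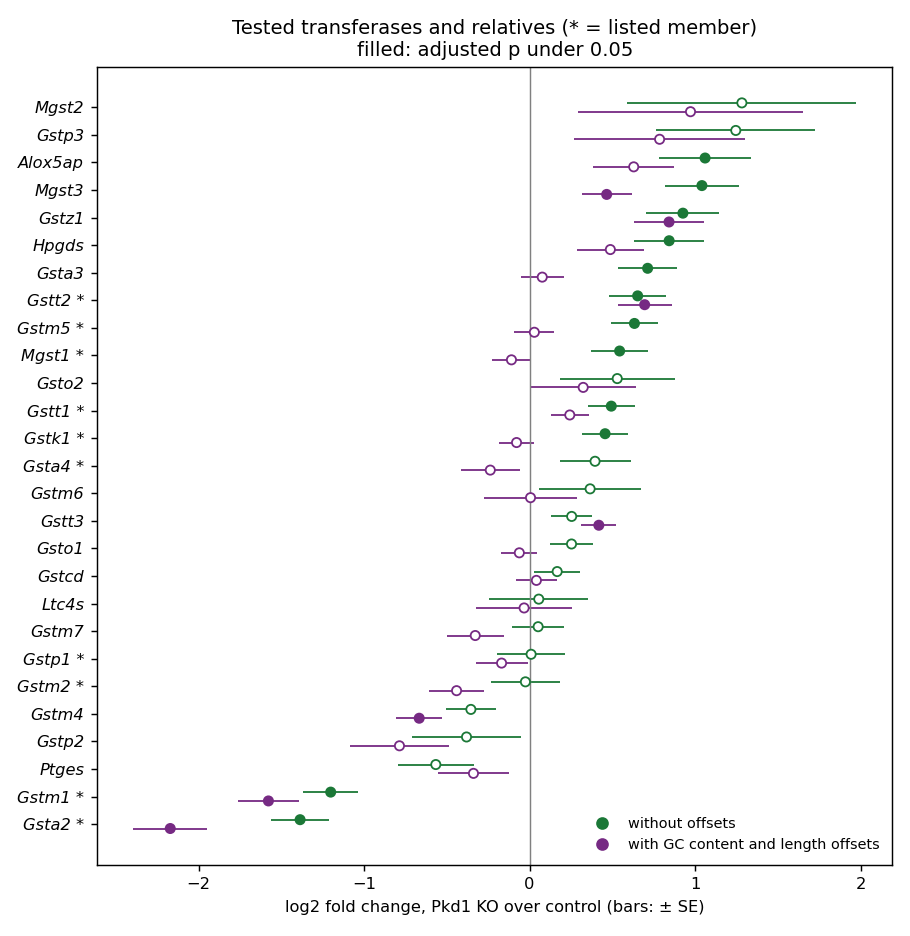
Log2 fold change of Pkd1 KO over control for each tested transferase or relative, without offsets (green) and with offsets for GC content and exon length (purple); bars are ± SE, filled points have an adjusted p under 0.05 and asterisks mark the 10 listed genes. Gsta2 and Gstm1 stay filled and move further left with offsets, while Gstm5, Gstt1, Gstk1 and Mgst1 move to between −0.11 and 0.24 and lose their call.

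Close copies bear on which reads could be counted, since reads that map to several places enter no gene. Such reads made up 12.2% to 13.4% of all reads in Pkd1 KO libraries and 8.996% to 10.6% in control runs. Of the 50-base windows of the members' transcripts, 64.2% of those of Gsta2 recurred in another gene (Gsta1, Gm10639 or Gm3776) and 62.3% of those of Gstp1 in Gstp2. Of 100-base windows the shares were 35.0% for Gsta2 and 52.8% for Gstp1. Reads lying wholly inside shared stretches could not be counted for these genes, and how many did so depends on read length. The coding sequence of Gsta2 was 97.6% identical to that of Gsta1, and that of Gstp1 98.1% identical to Gstp2. For Gstm1 the share of 50-base windows was 23.1%, mostly with the processed pseudogene Gstm2-ps1, and for Gstm2 9.36%. Few reads were assigned to the copies themselves. Gm10639 had 62 to 64 counts in Pkd1 KO libraries and 92 to 134 in control libraries, beside 1772 to 2770 and 3731 to 6866 counts of Gsta2. Gstm2-ps1 had 26 to 32 counts in Pkd1 KO and 31 to 69 in control libraries, beside 7459 to 8435 and 11789 to 18375 counts of Gstm1. Gstm5 shares 178 exonic bases with the antisense gene 4933431E20Rik, and reads there could not be given to either strand. That gene had 1742, 2050 and 2218 counts in Pkd1 KO libraries, against 835, 1131 and 981 in control libraries, beside 5741 to 8274 and 3826 to 4229 counts of Gstm5. Gsta4, Gstt1, Gstk1 and Mgst1 shared no 50-base window, and Gstt2 1.22% of its windows.

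Levels per kb of exon were used to order the members within a kidney, with no correction for reads lost to close copies. The share of 50-base windows found in other genes was 64.2% for Gsta2, 62.3% for Gstp1 and 23.1% for Gstm1. It was 0 for Gsta4, Gstt1, Gstk1 and Mgst1. The places of Gsta2, Gstp1 and Gstm1 may therefore be too low. In Pkd1 KO kidneys Gstm5 (96.3 ± 8.49 CPM per kb, SD, n = 3), Gstm1 (92.0 ± 9.97), Gstt1 (88.1 ± 1.25) and Gstp1 (80.2 ± 8.01) formed the top, with overlapping ranges between neighbours. Gstt2 (74.0 ± 0.83), then Gstk1 (53.5 ± 1.67) with Mgst1 (51.5 ± 4.97), and then Gsta2 (34.5 ± 3.58), Gsta4 (31.7 ± 8.83) and Gstm2 (27.0 ± 6.80) followed in steps. In control kidneys Gstm1 stood alone at 212 ± 31.4 CPM per kb (SD, n = 3), apart from all others. Gsta2 came next at 90.2 ± 16.6 CPM per kb, overlapping Gstp1 at 79.7 ± 21.98, and from there down to Gsta4 at 24.1 ± 4.09 each neighbour overlapped the next. Gstm1 thus led the controls by itself, while in Pkd1 KO kidneys its range overlapped that of Gstm5, and Gsta2 stood below all but Gsta4 and Gstm2. Per kb of principal transcript the lead of Gstm1 in control kidneys held (242 ± 35.8 CPM per kb), and in Pkd1 KO kidneys the order changed. There Gstp1 led at 151 ± 15.1 CPM per kb, Gstt2 followed at 136 ± 1.54 with a range overlapping that of Gstm5 at 130.3 ± 11.5, and Gstm1 stood at 105 ± 11.4. The place of Gstt2 among the members thus depends on which length is used.

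Per-length levels, with the same limit from close copies, were also summed over the 10 genes. The sum was 627, 625 and 635 CPM per kb in Pkd1 KO libraries, against 710.2, 631 and 696 in control libraries, with overlapping ranges. Gsta2 and Gstm1 together held 21.2%, 19.0% and 20.1% of it in Pkd1 KO libraries, against 47.98%, 49.7% and 36.0% in control libraries, where control 3 was again the nearest. Gsta2 and Gstm1 were singled out as the members called lower in these same libraries, so their lower share follows from that choice. The other 8 genes summed to 494, 506 and 508 CPM per kb in Pkd1 KO libraries, against 369, 317 and 446 in control libraries. Of the increases called among these 8, only that of Gstt2 stayed called with the offsets for length and base composition. With lengths of principal transcripts the sum was 954, 953 and 964 CPM per kb in Pkd1 KO libraries, against 1005, 891 and 1027 in control libraries, again overlapping.

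**Figure D3:**
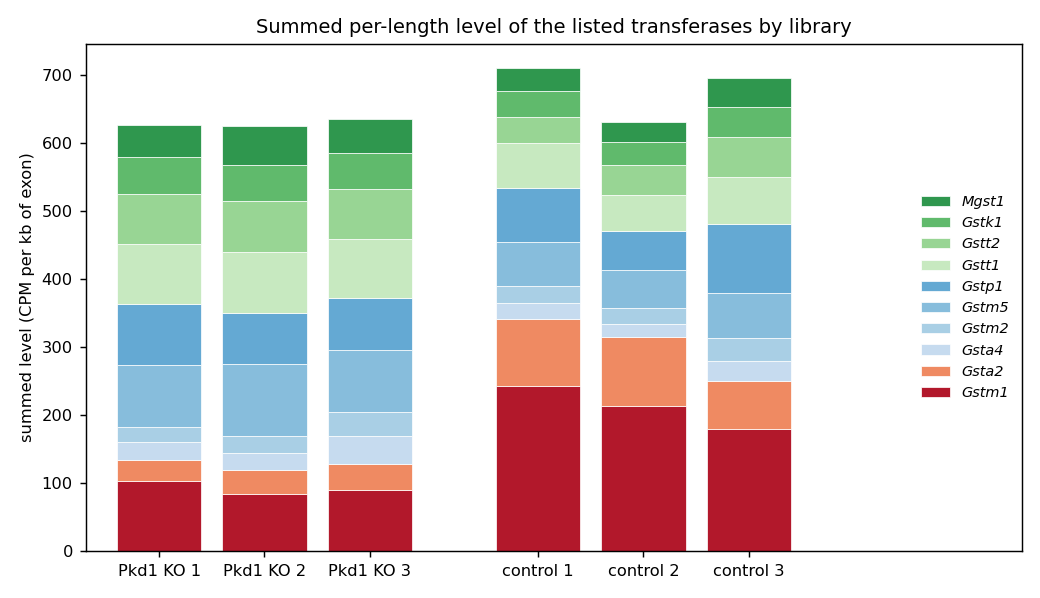
Summed level of the 10 transferases in CPM per kb of exon for each Pkd1 KO library (left) and control library (right), stacked by gene with Gstm1 and Gsta2 at the base in red and orange. Bar heights run from 625 to 635 in Pkd1 KO and from 631 to 710.2 in control libraries, and the red and orange layers hold 19.0% to 21.2% of the sum in Pkd1 KO libraries and 36.0% to 49.7% in control libraries.

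Ratios of counts within a library need no scaling between libraries, but they keep differences tied to length and GC content. They reuse the counts tested above and are not separate evidence. The ratio of Gstm1 to Gstm5 was 1.30, 0.901 and 1.13 in Pkd1 KO libraries, against 4.34, 4.47 and 3.08 in control libraries, a log2 difference of −1.83. The ratio of Gsta2 to Gsta4 was 1.03, 1.30 and 0.825 in Pkd1 KO libraries, against 3.83, 4.66 and 2.34 in control libraries, a log2 difference of −1.75. Gstm1 to Gstm2 differed by −1.16 and Gstm2 to Gstm5 by −0.67 on the log2 scale, both with groups apart. For these 4 pairs a two-sided exact permutation test gave p = 0.1, the smallest value that 3 libraries against 3 allow. The ratio of Gstt2 to Gstt1 was 2.26, 2.28 and 2.31 in Pkd1 KO libraries, against 1.59, 2.26 and 2.31 in control libraries, overlapping (log2 difference 0.17, exact permutation p = 0.6). A p that misses the threshold does not show that the theta pair moved alike.

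Of 22 other transferases and relatives listed, 20 were matched (all but Gsta5 and Gsta13) and 17 were tested, of which 5 rose and 0 fell, with a median log2 fold change of 0.37, where 22.7% of all genes were called higher and 24.2% lower. Between 2 (without Pkd1 KO 2) and 8 (without control 2) of them were called when 1 library was left out. Mgst3, a microsomal enzyme with peroxidase activity, had 191, 198 and 202 CPM in Pkd1 KO libraries, against 98.6, 64.6 and 124 CPM in control libraries (log2 fold change 1.04 ± 0.22, SE; edgeR, adjusted p = 0.00622). Gstz1, the zeta class enzyme of tyrosine breakdown, had 659, 663 and 594 CPM in Pkd1 KO libraries, against 323, 241 and 445 CPM in control libraries (0.93 ± 0.22, SE; edgeR, adjusted p = 0.00963). In both genes the groups did not overlap, and both stayed called with offsets (Mgst3 0.47, Gstz1 0.84) and without any 1 library. Alox5ap, the protein that presents arachidonic acid to lipoxygenase in leukocytes, averaged 3.23 ± 0.92 CPM in Pkd1 KO and 1.55 ± 0.34 CPM in control kidneys (SD, n = 3 each). Hpgds, the prostaglandin D synthase of blood cells, averaged 3.26 ± 0.44 CPM in Pkd1 KO and 1.82 ± 0.20 CPM in control kidneys. Both calls ended with offsets (adjusted p 0.0707 and 0.0894 in edgeR's test) and without Pkd1 KO 2 (0.068 and 0.0557). Of 9 macrophage markers, 5 were called higher and 1 lower in the same comparison, with Lyz2, a lysozyme, at 2.70 and Csf1r, the receptor of a macrophage growth factor, at −1.01, and their part in these levels was not tested. Gsta3, named after its values were seen, an alpha class relative that is 75.3% identical to Gsta2 in coding sequence, had 192, 220.3 and 208 CPM in Pkd1 KO libraries, against 124, 99.5 and 155 CPM in control libraries. All its Pkd1 KO libraries lay above the controls (log2 fold change 0.71 ± 0.18, SE; edgeR, adjusted p = 0.0119), opposite in sign to Gsta2, but the call ended with offsets (0.08, adjusted p = 0.679), without control 1 (0.0527) and without Pkd1 KO 2 (0.0571). With offsets 3 relatives were called higher and 1 lower, the added calls being Gstt3 (0.42, adjusted p = 0.0149) and, on the low side, Gstm4 (−0.67, adjusted p = 0.00662), both also named after their values were seen. Over all genes that fit called 15.0% higher and 19.5% lower. With principal transcripts Mgst3 and Gstz1 were called higher and Gstm4 (−0.51) and Gstp2 (−0.93), a close copy of Gstp1, lower. Gstt3 (0.10, edgeR, adjusted p = 0.524) was not called there. Gstp2 had few counts, 52 to 75 in Pkd1 KO libraries and 61 to 86 in control libraries, and 72.6% of its 50-base windows recurred in another gene.

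Among 20 tested genes of glutathione synthesis and recycling, 8 rose and 3 fell (8 to 14 calls with 1 library left out), with a median log2 fold change of 0.09, where 46.9% of all genes were called. Gclc, the catalytic subunit of the enzyme that limits glutathione synthesis, averaged 279.9 ± 22.98 CPM in Pkd1 KO and 539 ± 127 CPM in control kidneys (log2 fold change −0.95 ± 0.20, SE; edgeR, adjusted p = 0.00568). Gsr, the reductase that regenerates glutathione, named after its values were seen, also fell (−0.90, adjusted p = 0.00511 in edgeR's test), and both stayed called with offsets at −1.13. Oplah, which recycles oxoproline to glutamate, fell by 1.34 on the log2 scale, a call that ended with offsets (−0.37, adjusted p = 0.0516). Chac2, which breaks glutathione down, averaged 114 ± 16.1 CPM in Pkd1 KO and 39.7 ± 15.7 CPM in control kidneys, the largest increase of this list (1.53 ± 0.27, SE; edgeR, adjusted p = 0.00337). Slc25a40 (1.24), a mitochondrial glutathione carrier, Gpx8 (1.23), a peroxidase of the endoplasmic reticulum, and Gpx4 (1.08), the peroxidase that protects membrane lipids, rose as well, and these 4 stayed called with offsets (0.86 for Slc25a40, 0.41 for Gpx8, 1.25 for Gpx4 and 0.57 for Chac2), although Gpx8 was not called with principal transcripts (adjusted p = 0.058). Gpx3, the secreted peroxidase made by the proximal tubule, was the most abundant gene of the list at 17932 ± 1887 CPM in Pkd1 KO and 19504 ± 2251 CPM in control kidneys (SD, n = 3 each), with a log2 fold change of −0.12 (edgeR, adjusted p = 0.635). Txn1, the electron donor thioredoxin, rose by 0.92 on the log2 scale, a call that ended with offsets (0.20, adjusted p = 0.332) and without control 1 (0.0515).

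Of 19 tested genes that process or export conjugates, 9 fell and 0 rose, with a median log2 fold change of −0.42. The calls taken in either direction were about as frequent as over all genes (46.9%, with 24.2% lower), and 6 to 11 genes were called when 1 library was left out. Abcc1, an export pump for glutathione conjugates, averaged 7.12 ± 0.96 CPM in Pkd1 KO and 21.3 ± 8.93 CPM in control kidneys (log2 fold change −1.58 ± 0.28, SE; edgeR, adjusted p = 0.00345). Abcc2 (−1.12) and Abcc4 (−1.12), pumps of the apical membrane of the proximal tubule, and Anpep (−1.10), a brush border aminopeptidase that trims conjugates, fell too. These 4 stayed called with offsets, at −0.61, −0.95, −0.78 and −0.79, and without any 1 library. The most abundant genes per length, Acy3, which removes acetyl groups from mercapturates (−0.51, adjusted p = 0.0532, and −0.58, adjusted p = 0.0312, with offsets), and Cndp2, a dipeptidase (0.22, adjusted p = 0.37), did not pass in edgeR's test without offsets. Proximal tubule markers, summed further on, stood lower in the same libraries, and their part was not tested. With offsets 8 genes were called lower and 2 higher, Cndp2 (0.60, adjusted p = 0.0426) and Kyat3 (0.75, adjusted p = 0.0201), the second named after its values were seen. Over all genes that fit called 19.5% lower and 15.0% higher. With principal transcripts 8 were called lower and 0 higher, beside 19.3% lower and 14.3% higher over all genes. There Cndp2 stood at 0.32 (adjusted p = 0.182) and Kyat3 at −0.22 (adjusted p = 0.178).

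Of 15 tested genes of the NRF2 system, 3 rose and 7 fell, with a median log2 fold change of −0.39, where 22.7% of all genes were called higher and 24.2% lower. Without Pkd1 KO 2 or Pkd1 KO 3 only 3 were called, without control 1 6, and without control 3 11. The transcript of NRF2 itself, Nfe2l2, named after its values were seen, averaged 85.8 ± 7.79 CPM in Pkd1 KO and 90.2 ± 6.12 CPM in control kidneys (edgeR, adjusted p = 0.675), and was called lower with principal transcripts alone (−0.36, adjusted p = 0.0351). Besides Gclc, the targets Hmox1 (−0.77), which degrades heme, and Osgin1 (−0.83) fell, as did Mafg (−0.89), a small partner protein of NRF2. With offsets Hmox1 stayed called (−1.06), while the calls of Osgin1 (−0.38, adjusted p = 0.186) and Mafg (−0.17, adjusted p = 0.387) ended. Nqo1, a quinone reductase, averaged 130 ± 6.46 CPM in Pkd1 KO and 91.1 ± 19.1 CPM in control kidneys (log2 fold change 0.52 ± 0.17, SE; edgeR, adjusted p = 0.0329), and turned to −0.16 with offsets. Maff (1.12), a further small partner protein, and Slc7a11 (1.44), the cystine carrier, named after its values were seen, rose at low levels (4.16 and 0.577 CPM in Pkd1 KO kidneys, 1.93 and 0.209 CPM in control kidneys) and stayed called with offsets. Leaving out a library ended the calls of Hmox1 (without control 1, Pkd1 KO 2 or Pkd1 KO 3), Mafg (without Pkd1 KO 2), Osgin1 (without Pkd1 KO 1 or 3), Slc7a11 (without control 1, Pkd1 KO 2 or 3), and Maff and Nqo1 (without any library but control 3), at adjusted p up to 0.131. Me1, an enzyme that supplies NADPH and 1 of the most abundant of the list per length, stood at −0.21 (edgeR, adjusted p = 0.323) and at −0.58 with offsets (adjusted p = 0.0175).

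Of 16 tested genes that clear lipid aldehydes by other routes, 4 rose and 3 fell (6 to 10 calls with 1 library left out), with a median log2 fold change of −0.07. In this fit without offsets calls were about as frequent as over all genes, where 46.9% were called. With offsets 4 were called higher and 5 lower, with a median of −0.15, beside 15.0% higher and 19.5% lower over all genes. With principal transcripts 4 were called higher and 6 lower, with a median of −0.34, beside 14.3% higher and 19.3% lower. Aldh1a1, a retinal and aldehyde dehydrogenase, averaged 33.4 ± 7.01 CPM in Pkd1 KO and 7.92 ± 2.84 CPM in control kidneys (log2 fold change 2.08 ± 0.28, SE; edgeR, adjusted p = 0.00235). Ptgr1 (1.10), a reductase of unsaturated aldehydes and ketones, and the carbonyl reductases Cbr1 (0.89) and Cbr3 (0.82) rose, although Cbr3 lost its call without control 1, Pkd1 KO 2 or Pkd1 KO 3 (adjusted p up to 0.0677). Aldh2 (−0.93), the mitochondrial aldehyde dehydrogenase, Akr7a5 (−0.85), an aflatoxin aldehyde reductase, and Aldh7a1 (−0.81), named after its values were seen, fell, and of these Aldh2 lost its call with offsets (−0.34, adjusted p = 0.0957 in edgeR's test). Akr1a1, an abundant aldehyde reductase, stood at −0.08 (edgeR, adjusted p = 0.738).

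**Figure D4:**
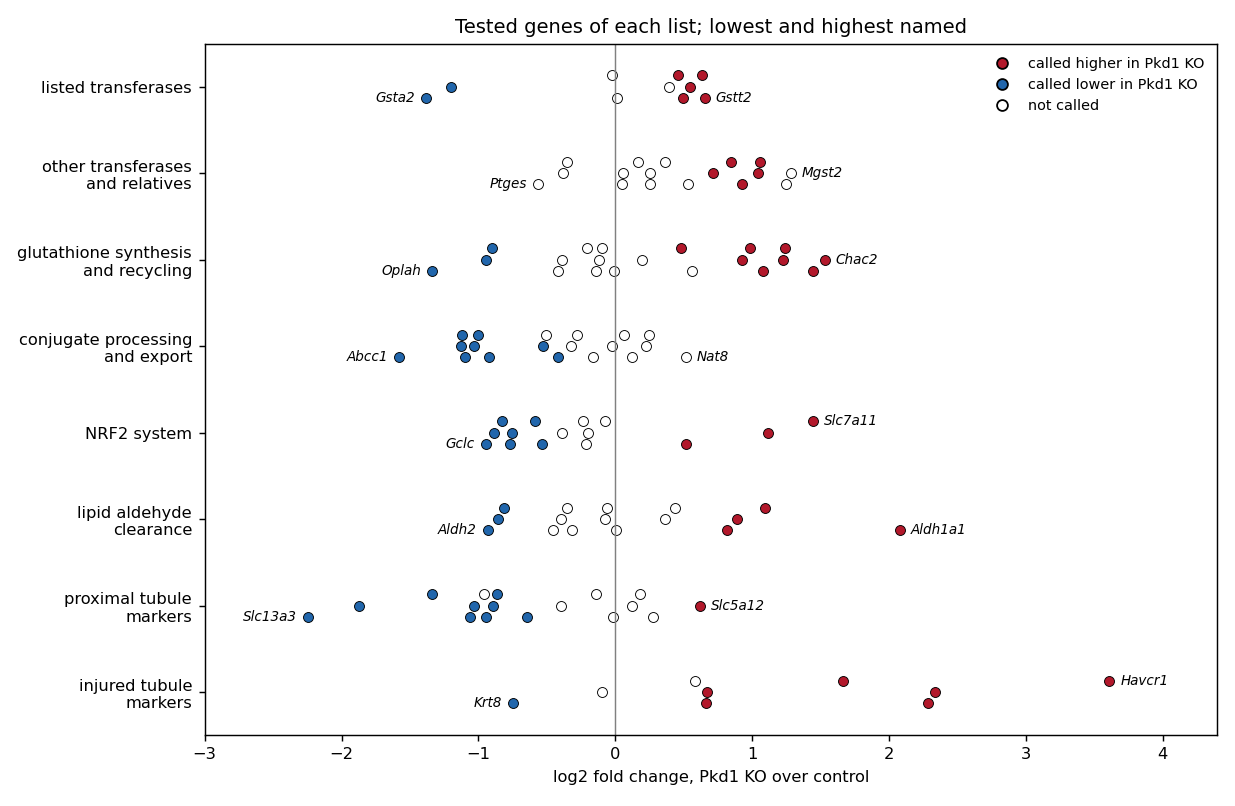
Log2 fold change of Pkd1 KO over control for every tested gene of 8 lists, 1 point a gene, red where called higher, blue where called lower and white where not called; the lowest and highest gene of each list are named and vertical offsets only separate points. Conjugate processing and export holds 9 blue and 0 red points, and proximal tubule markers hold 9 blue and 1 red. Of all tested genes 24.2% were called lower and 22.7% higher.

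Markers of several kidney cell types differed between the groups, and their part in the results was not tested. Their calls stand beside 22.7% of all tested genes called higher and 24.2% lower (15.0% and 19.5% with offsets). With offsets 0 proximal tubule markers were called higher and 11 lower. Injured tubule markers then held 4 higher and 1 lower, and macrophage markers 3 higher and 1 lower. The summed level of 17 proximal tubule markers was 13233 to 16489 CPM in Pkd1 KO libraries and 19869 to 22667 CPM in control libraries, with 9 called lower and 1 higher. Slc34a1, the phosphate carrier, fell by 1.34 on the log2 scale, and Keg1 stood at −0.02. The 9 markers of injured tubule summed to 796 to 1257 CPM in Pkd1 KO libraries and 595 to 747 CPM in control libraries, with 6 higher and 1 lower. Spp1, the most abundant, stood at 0.52 to 0.83 with 1 library left out (edgeR, adjusted p up to 0.117), and its direction turned with offsets. Vcam1 lost its call without any library but Pkd1 KO 1. Krt8, the next most abundant, was the marker called lower (−0.84 to −0.68 with 1 library left out). The 9 macrophage markers summed to 203 to 331 CPM in Pkd1 KO libraries and 115 to 153 CPM in control libraries, with 5 higher and 1 lower (Csf1r), and 4 adipocyte markers to 149 to 198 CPM against 40.4 to 87.5 CPM. Thick limb markers stood at 2410.3 to 2844 CPM in Pkd1 KO and 4487 to 5888 CPM in control libraries, and the 5 adrenal markers at up to 2.63 and 4.63 CPM. Among controls, control 3 had the lowest sum of proximal tubule markers and the highest sum of injured tubule and adipocyte markers. Distal convoluted tubule markers summed to 415 to 504 CPM in Pkd1 KO and 1078 to 1352 CPM in control libraries, principal cell markers to 325 to 451 and 514 to 598 CPM, and intercalated cell markers to 233 to 239 and 262 to 316 CPM. Endothelial markers summed to 301 to 307 CPM in Pkd1 KO and 324 to 366 CPM in control libraries, fibroblast markers to 232 to 323 and 212 to 258 CPM, and podocyte markers to 160 to 183 and 209 to 375 CPM. Endothelial markers held 2 called higher and 4 lower (1 and 2 with offsets), fibroblast markers 2 and 2, and adipocyte markers 2 and 0. Of thick limb markers 1 was called higher and 3 lower, as for intercalated cells. Distal convoluted tubule markers held 0 higher and 3 lower, principal cell markers 0 and 4, and podocyte markers 0 and 3. No marker of these lists was at 0 in every library, and markers of the kidney tubule were the most abundant, as the label whole kidney says.

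Profiles most like those of 3 members were sought among 11088 protein-coding genes over the 6 libraries, by the root mean square difference of log2 CPM centred on each gene's mean. Nearest to Gstm1 were Ints5 (0.059), Rnpep (0.065) and Tufm (0.066). Nearest to Gstt2 were Osgin2 (0.061), Cdkn1b (0.065) and Sft2d1 (0.065). Nearest to Gsta2 were Gdf11 (0.011), Exoc3l2 (0.059) and Flt4 (0.074). With 6 libraries split by group, such likeness is a description of these samples.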

How the data were processed

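Poly-A RNA of whole mouse kidneys was sequenced in 3 Pkd1 KO and 3 control samples. The deposited tables hold raw read counts per Ensembl gene made by the authors, 7 tables in all because control 1 was sequenced in 2 runs, whose counts were summed. STAR 2.6.1e, cutadapt 4.0, FastQC 0.11.8 and the build GRCm39 are named in the submitters' processing notes. Annotation details were not given in the sources used here. Counts without regard to strand were used, since reads split evenly by strand (49.1% to 49.96% on the first). Entries that name no gene, 25.3% to 26.3% of all reads in Pkd1 KO libraries and 22.7% to 23.8% in control runs, were left out. Symbols came from GENCODE M21 (52073 of 56923 identifiers), and promoters from RefSeq.

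Genes passing filterByExpr were scaled by TMM and tested with edgeR 4.0.16 (quasi-likelihood, R 4.3.3) with Benjamini-Hochberg adjustment over all 18273 tested genes and a threshold of 0.05; the common biological coefficient of variation was 21.4%. The second fit covered the 17785 genes (97.3%) with a GC content and a length. Tables and figures were made in Python 3.11.15. Only the edgeR fit without offsets was tested on simulated counts, which held no effect of length or base composition. Labels do not say more of the animals, so p-values measure the spread between these samples. Genes of the other lists were named by rule: of genes whose average log2 CPM was 0 or more, the 4 called with the largest change in the commoner direction and 2 in the other, and the 2 most abundant per length. The members and lists were chosen with earlier results of these data known. Alternatives were other scalings, no filter, DESeq2 1.42.0, the deeper run of control 1 alone, summed close copies, a replicate block, offsets and leaving out each library.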

Additional observations from a re-analysis of the deposited data

How the results depend on the processing

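The decreases of Gsta2 (−2.40 to −1.22) and Gstm1 (−1.73 to −0.91) kept their direction and passed the test under all 23 alternatives, and Gstt2 kept its direction in all (0.50 to 0.88), with its call lost as given above. The −0.91 belongs to the counts of Gstm1 summed with those of Gstm2, Gstm3, Gstm4, Gstm6 and Gstm7. Of these, Gstm4 and Gstm7 shared no 50-base window with another gene. With upper-quartile scaling Gstm1 stood at −1.04. For what follows the cause was not tested. With offsets, with offsets plus the replicate block, and with principal transcripts, in that order, log2 fold changes were −0.24, −0.27 and −0.29 for Gsta4, 0.029, 0.029 and −0.021 for Gstm5, −0.17, −0.16 and −0.46 for Gstp1, 0.24, 0.24 and 0.052 for Gstt1, −0.079, −0.079 and −0.21 for Gstk1, and −0.11, −0.11 and −0.27 for Mgst1. Gstm2 stood at −0.46 with block and offsets, −0.57 with principal transcripts and 0.13 with upper-quartile scaling, and Gstp1 at −0.011 with RLE scaling and with DESeq2. Offsets, alone, with the replicate block or with principal transcripts, called 1 member higher each. The block with offsets called 3 members lower, with Gstm2 added (adjusted p = 0.0305), and principal transcripts 4. Offsets with principal transcripts, offsets with a library left out and the sum of genes sharing at least 5 percent of windows were chosen after seeing the data. Leaving out 1 library gave 1 to 5 members higher (1 without control 1, Pkd1 KO 2 or Pkd1 KO 3) and 2 lower, and with offsets 0 to 1 higher and 2 to 3 lower. Those fits spanned 0.15 to 0.53 for Gsta4 (with offsets −0.45 to −0.066), −0.25 to 0.10 for Gstm2 (−0.63 to −0.32), 0.52 to 0.67 for Gstm5 (−0.0060 to 0.098), −0.21 to 0.17 for Gstp1 (−0.30 to −0.028), 0.36 to 0.52 for Gstt1 (0.20 to 0.30), 0.50 to 0.79 for Gstt2 (0.56 to 0.88), 0.33 to 0.51 for Gstk1 (−0.095 to −0.018) and 0.40 to 0.67 for Mgst1 (−0.17 to −0.048). Over all genes 8579 were called, 6141 with offsets and 5071 to 10318 without 1 library. Calls ran from 2 to 8 for other transferases (8 with upper-quartile scaling, which moves the median of all genes to 0.19), 8 to 14 for synthesis and recycling, 6 to 11 for processing and export, 3 to 11 for NRF2 and 6 to 10 for lipid aldehydes. Upper-quartile scaling turned Gpx3 (0.039), Akr1a1 (0.079) and Keg1 (0.13), and offsets turned Nqo1 (−0.16), Spp1 (−0.16, −0.17 with block) and Atp6v1g3 (−0.13, −0.12 with block). Without 1 library Keg1 stood at −0.28 to 0.12, and Star at −0.56 to 0.048, above 0 without control 2 alone.

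Same-numbered samples did not deviate together (correlations 0.04, −0.08 and −0.03). With 3 libraries a group this cannot show whether the numbers pair the samples, and the labels do not say. With the replicate block Gstk1 kept its log2 fold change (0.46) but not its call (edgeR, adjusted p = 0.0542), and the log2 fold change of Keg1 was 0.018, with no call. The block with offsets put Nqo1 at −0.16 and called 5471 genes. Gstm2 has no value with close copies summed, since it enters the Gstm1 sum. Depth was ample for the members, each with at least 1474 counts in every library, and 3 libraries a group limit the precision.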
